A study of Mus musculus and Rattus norvegicus with 28 samples.

Results

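Integrins are the receptors by which a cell holds on to the matrix around it. Each is a pair of one α and one β subunit, the pair decides which matrix protein is bound, and the tail of the β subunit is tied to the actin cytoskeleton through talin, kindlin and related adaptors. In heart muscle the β1 subunit sits at costameres, where the contractile fibrils meet the membrane, and the laminin receptor α7β1 is the pair best known from striated muscle.

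The 10 subunits described here, 7 α (Itga1, Itga5, Itga6, Itga7, Itga8, Itga9 and Itgav) and 3 β (Itgb1, Itgb3 and Itgb5), were taken by gene symbol from 55450 mouse and 32623 rat genes. The expression of a gene was the sum of the FPKM values of its transcripts, where FPKM is the number of read pairs scaled to transcript length and to library size, so that levels can be compared between genes. The 10 genes all passed the filter on low values in both species, among 13979 mouse and 13625 rat genes tested.

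The mouse samples were C57BL/6 left ventricular cells labelled cardiomyocytes, from embryonic day 18.5 (E18.5) and postnatal days 1, 3 and 7 (P1, P3 and P7), with 2 RNA-seq and 2 ATAC-seq libraries per time point. ATAC-seq marks open chromatin. The rat samples were ventricular cardiomyocytes of P1 Sprague Dawley pups in culture, given 100 nM trichostatin A (TSA), an inhibitor of histone deacetylases, or its solvent DMSO, with 3 RNA-seq libraries each. Per the methods, hearts of both sexes were digested with trypsin and collagenase, cells that attached during a short preplating were discarded, and mouse cells were used without culture. It was not stated whether replicates were separate litters or isolations, so the p-values measure the spread between these libraries only.

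Depth, worked out from the deposited coverage and FPKM, was 29.3 to 37.5 M reads of 150 bases in mouse and 28.2 to 38.5 M in rat. The label was checked against marker genes. The summed FPKM of 12 cardiomyocyte markers was 28030 to 36000 in the E18.5 libraries, then 13495 to 21720 (P1), 7840 to 9120 (P3) and 905 to 2197 (P7), and all 12 fell at P7. That of 10 fibroblast markers was 352 to 365 at E18.5 and 1471 to 1713 at P7, and 8 of them rose. That of 6 red cell markers was 29045 to 35394 at E18.5 and at most 41.0 later. In bulk RNA fewer cells of a type and less RNA per cell cannot be told apart, so time point and cell mixture cannot be told apart in any mouse result here. In rat, the libraries numbered 3 stood apart from the others in both groups.

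The sequences that bear on the results are given first. The Itgb1 gene can end in one of 2 coding tails. The exon of the β1D tail, the form known from striated muscle, has 81 bases (chr8:128726983-128727063, mm10, plus strand), and its 72 coding bases, which stand in for those of the common tail, are in capitals. The coding part of the common last exon (chr8:128732023-128732085) is in lower case for comparison. From their first base and without gaps, 41 of 63 bases are identical (65.1%).

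Itgb1 D exon: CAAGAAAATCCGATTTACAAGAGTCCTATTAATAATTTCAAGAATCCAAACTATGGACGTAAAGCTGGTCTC
Itgb1 common exon: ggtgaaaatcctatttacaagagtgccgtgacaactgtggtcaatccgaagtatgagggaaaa

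One coding exon of Itgb5 has 2 ends in GENCODE. The longer form carries 29 further bases, in capitals here (chr16:33947823-33947881, plus strand). It is shown because the shorter end had a smaller share of exon coverage in the P7 libraries.

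Itgb5 exon end: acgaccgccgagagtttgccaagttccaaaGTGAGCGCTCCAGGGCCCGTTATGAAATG

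The next 3 windows are open chromatin. The Itgb1 window is the 250 bases before its start in RefSeq (GRCm38.p6, chr8:128685404-128685653), shown because the best promoter peaks of the most abundant subunit lie over it. The Itga9 and Itga7 windows are 201 bases around the summit of the peaks that these genes had at P3 and not at E18.5 (chr9:118606501-118606701 and chr10:128950265-128950465, plus strand, P3 replicate 1). Capitals mark matches on either strand to 3 motifs, the AP-1 motif TGACTCA, the GC box GGGCGG and the TEAD motif CATTCC, which do not overlap one another here.

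Itgb1 promoter: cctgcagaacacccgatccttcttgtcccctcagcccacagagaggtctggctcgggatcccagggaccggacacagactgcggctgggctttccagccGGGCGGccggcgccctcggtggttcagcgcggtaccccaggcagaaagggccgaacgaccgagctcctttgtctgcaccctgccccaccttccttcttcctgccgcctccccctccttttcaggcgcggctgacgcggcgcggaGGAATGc
Itga9 peak: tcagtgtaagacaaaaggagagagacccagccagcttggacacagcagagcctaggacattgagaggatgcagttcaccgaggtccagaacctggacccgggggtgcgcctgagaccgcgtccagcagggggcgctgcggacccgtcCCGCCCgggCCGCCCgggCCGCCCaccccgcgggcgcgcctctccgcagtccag
Itga7 peak: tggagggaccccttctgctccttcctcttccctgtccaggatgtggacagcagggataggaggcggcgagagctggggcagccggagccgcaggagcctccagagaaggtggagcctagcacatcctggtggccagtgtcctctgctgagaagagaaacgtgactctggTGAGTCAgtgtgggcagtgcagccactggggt

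To see how matrix receptors changed over birth, the 3 later time points were each compared with E18.5, and P7 with P1. A gene was called, and is said to have risen or fallen, where limma gave an adjusted p (Benjamini-Hochberg) under 0.05 and the log2 fold change was over 1 in either direction on the log2(FPKM + 1) scale, which understates the change of low genes. At P7, 4 of the 10 subunits rose (Itga8, Itgav, Itgb3 and Itgb5) and 0 fell, where 15.4% of all genes tested rose and 12.3% fell. Itga8 was under 1 FPKM in both E18.5 libraries and passed the filter on low values only through later ones, so its count among the risers is no support. At P3, 4 rose (Itga7, Itga8, Itgb3 and Itgb5) and 0 fell, against 13.0% and 8.88% of all genes. At P1 Itga7 rose and 0 fell, against 10.1% and 6.06%. The 3 comparisons share the E18.5 libraries. Median changes at P7 were -0.01 for the 7 α subunits and 1.43 for the 3 β subunits, beside 0.14 over all genes tested.

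**Figure D1:**
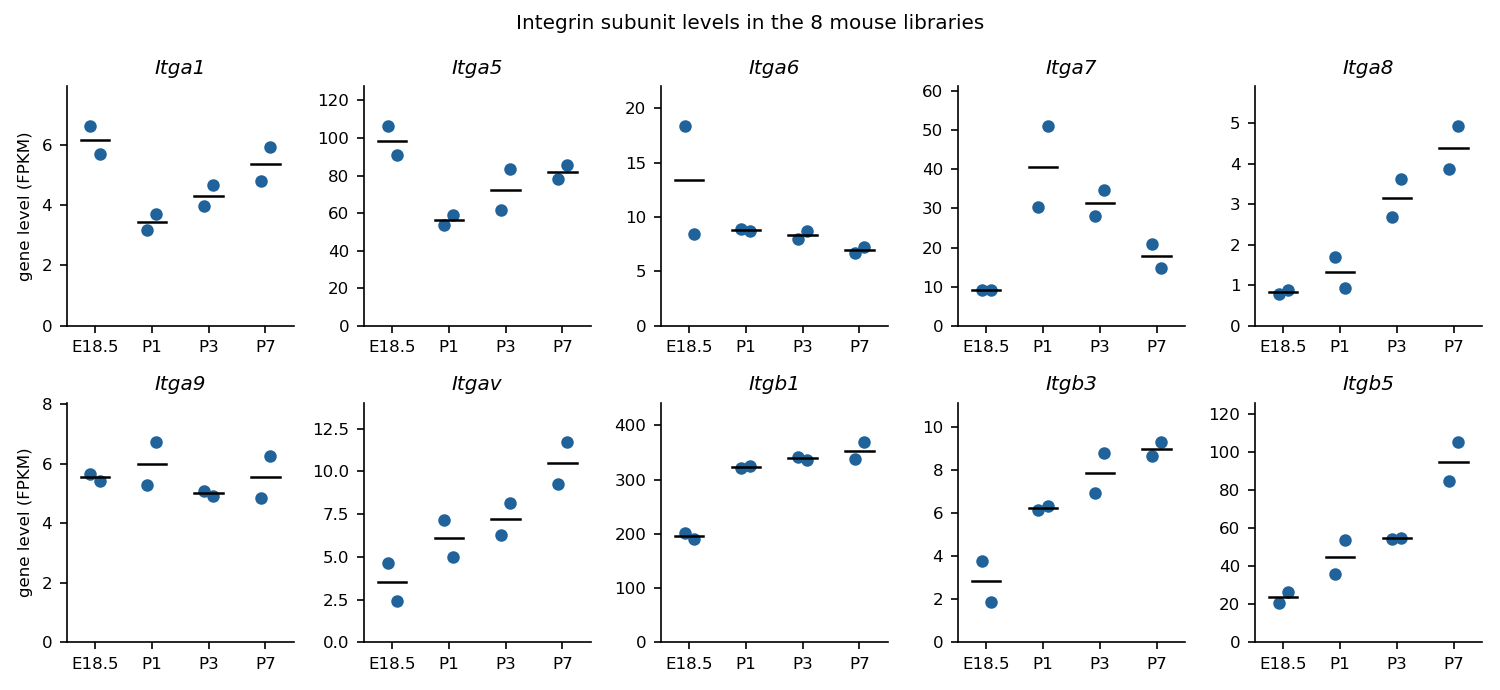
FPKM of each integrin subunit in the mouse RNA-seq libraries (vertical axis, linear, from 0) at E18.5, P1, P3 and P7 (horizontal axis). Points are the 2 libraries and horizontal lines their mean. Itgb1 stood at 191 and 201 at E18.5 and between 322 and 368 in the 6 later libraries, and Itgb5 climbed from 20.9 and 26.3 to 85.0 and 105.

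Itgb1, the common partner of most α subunits (chr8:128685654-128733200), had the highest level of the 10 at every time point. Its FPKM was 201 and 191 for E18.5, then 322 and 325 for P1, 342 and 336 for P3 and 338 and 368 for P7. The 6 postnatal libraries all lay above both E18.5 libraries. The change had an adjusted p of 0.0016 at P1, 0.000751 at P3 and 0.000354 at P7 in limma, but its size, 0.72, 0.79 and 0.85 (SE 0.11 each), stayed under the fold threshold. P7 differed from P1 by 0.13 (SE 0.11, adjusted p 0.497 in limma).

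Itgb5, which pairs with αv as a vitronectin receptor (chr16:33829665-33949338), changed most of the 10 at P7. Its libraries read 20.9 and 26.3 FPKM for E18.5, then 36.0 and 53.8 for P1, 54.3 and 54.9 for P3 and 85.0 and 105 for P7. No P7 library overlapped an earlier one. The log2 fold change was 1.19 (SE 0.21) at P3 and 1.97 (SE 0.21) at P7, with limma adjusted p-values of 0.00231 and 0.000134, and Itgb5 rose again from P1 to P7 by 1.08 (limma adjusted p 0.00923). At P1 its change of 0.88 was not called, but it was 1.04 without E18.5 replicate 2 and 1.17 without P1 replicate 1, and then called. Size factors in place of FPKM ended the call at P3, with a change of 0.97.

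Itgb3, a further β partner of αv and the β chain of the platelet fibrinogen receptor, was low throughout. It read 3.80 and 1.87 FPKM for E18.5, then 6.15 and 6.34 for P1, 6.94 and 8.80 for P3 and 8.68 and 9.29 for P7. Both E18.5 libraries lay below all later ones, and the rise was 1.25 (SE 0.24) at P3 and 1.43 (SE 0.24) at P7, with limma adjusted p-values of 0.00375 and 0.00151. Without E18.5 replicate 2, the P3 change was 0.88 and no longer called. The P1 change of 0.96 was not called, but without E18.5 replicate 1 it was 1.34 and called. Among 6 platelet markers, summed FPKM was 12.6 to 15.6 at E18.5 and 67.9 to 76.7 at P7. Most of it was Pf4, with means of 10.6 and 67.4, and Ppbp went from a mean of 0.19 to 2.98. Itga2b went the other way, from 2.60 and 3.02 FPKM in the E18.5 libraries to 0.92 and 1.45 in those of P7. Gp9, Gp1ba and Gp1bb were under 1 at both time points. The part of platelet RNA in the Itgb3 result was not tested.

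Itgav encodes αv, the subunit shared by the vitronectin receptors, and it rose at P7. Its levels were 4.66 and 2.41 FPKM for E18.5, then 7.17 and 5.03 for P1, 6.25 and 8.16 for P3 and 9.27 and 11.7 for P7. The P7 libraries lay above all others, and the rise at P7 was 1.38 (SE 0.28, limma adjusted p 0.00344). At P1 and P3 the changes of 0.68 and 0.89 were not called, but without E18.5 replicate 1 they were 1.04 and 1.26 and were called.

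Itga8, the partner of β1 in the nephronectin receptor of mesenchymal cells, had the lowest mean of the 10 at every time point. It read 0.79 and 0.88 FPKM for E18.5, then 1.70 and 0.94 for P1, 2.68 and 3.62 for P3 and 3.86 and 4.93 for P7. Libraries of P3 and P7 lay above those of E18.5 and P1, with log2 fold changes of 1.16 (SE 0.22) and 1.55 (SE 0.22) over E18.5 and limma adjusted p-values of 0.00316 and 0.000579. Since it entered the test only through later libraries, where it was high, its calls are a description of these levels. The P3 call was lost without P3 replicate 2, at a change of 1.00.

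Itga7, the laminin-binding α subunit of striated muscle (chr10:128933818-128958282), had a course of its own. It stood at 9.14 and 9.05 FPKM for E18.5, then 30.3 and 51.0 for P1, 28.1 and 34.7 for P3 and 20.8 and 14.9 for P7. The 4 libraries of P1 and P3 lay above the 2 of P7, which lay above the 2 of E18.5. Against E18.5 the log2 fold change was 2.0 (SE 0.25) at P1 and 1.68 (SE 0.25) at P3, with limma adjusted p-values of 0.000751 and 0.00115. At P7 it was 0.88 (limma adjusted p 0.0186), under the fold threshold, or 1.11 without P7 replicate 2 and then called. From P1 to P7 Itga7 fell by 1.12 (SE 0.25, limma adjusted p 0.0189), where 5.46% of all genes fell.

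The P7 against P1 calls, Itga7 down and Itga8 (1.23) and Itgb5 up, rested on single libraries, and 3.45% of all genes rose. Without P7 replicate 2 none of the 10 was called (Itga7 -0.89, Itga8 1.08, Itgb5 0.93), without P1 replicate 2 Itgb5 alone was (Itga7 -0.75, Itga8 0.99), and without P1 replicate 1 Itgb5 was 0.80 and not called. Between P1 and P3, and between P3 and P7, 0 of the 10 were called in limma, where 0.0143% and 3.55% of all genes were. Unadjusted p-values under 0.05 were seen for 1 of the 10 in the first and 2 in the second, where 11.3% and 18.5% of all genes had one.

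Itga5, the fibronectin receptor subunit (chr15:103344286-103366763), was the most abundant α subunit at all 4 time points. Its libraries gave 106 and 90.9 FPKM for E18.5, then 53.7 and 58.9 for P1, 61.4 and 83.4 for P3 and 78.0 and 85.6 for P7. Both E18.5 libraries lay above the 6 later ones, with the lowest values at P1. The log2 difference from E18.5 was -0.80 (SE 0.17, limma adjusted p 0.00664) at P1 and -0.26 (limma adjusted p 0.207) at P7, neither past the fold threshold.

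Itga1, a collagen receptor, had its lowest levels at the same time point. It read 6.61 and 5.69 FPKM for E18.5, then 3.18 and 3.72 for P1, 3.95 and 4.67 for P3 and 4.79 and 5.93 for P7, and E18.5 and P7 overlapped. The P1 difference was -0.69 (SE 0.17, limma adjusted p 0.0151), again under the fold threshold.

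Itga6, a laminin-binding subunit of endothelial and epithelial cells, differed more between the E18.5 libraries than between time points. They gave 18.4 and 8.49 FPKM, and the 6 later libraries 6.74 to 8.86. The P7 difference of -0.76 (SE 0.29, limma adjusted p 0.0542) was not called, but without E18.5 replicate 2 it was -1.27 and called, as was the P3 difference at -1.05. The summed FPKM of 8 endothelial markers was 456 and 247 in the same E18.5 libraries, in the same order. Later this sum lay at 281 to 297 (P1), 429 to 489 (P3) and 330 to 384 (P7). The P3 sums were thus near the higher E18.5 one, yet Itga6 read only 7.99 and 8.71 FPKM there. The part of endothelial RNA in the Itga6 values was not tested.

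Itga9, which binds tenascin and related ligands with β1, lay between 4.83 and 6.71 FPKM in all 8 libraries. Its differences from E18.5 were 0.09, -0.12 and -0.01 (SE 0.18 each), with a 95% interval at P7 of -0.41 to 0.40. Every time point overlapped E18.5 except P3, whose libraries (5.09 and 4.92) lay below both.

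The order of the levels changed in the middle rather than at its ends. Itgb1 and Itga5 led at E18.5, P1 and P3, and Itgb5 passed Itga5 at P7, with ranges that overlapped. Neighbours that overlapped at E18.5 were Itga6 with Itga7 and Itgav with Itgb3, at P1 Itga5 with Itgb5, Itgb5 with Itga7, Itgb3 with Itgav and Itgav with Itga9, at P3 Itga6 with Itgb3 and Itgb3 with Itgav, and at P7 also Itgav with Itgb3, Itga9 with Itga1 and Itga1 with Itga8. Other neighbours did not overlap. Of the summed FPKM of the 3 β subunits, Itgb1 made up 87.1% to 89.1% at E18.5 and 76.3% to 78.3% at P7, and Itgb5 9.24% to 12% and 19.7% to 21.8%. Of the 7 α subunits, Itga5 gave 70.2% to 74.0% at E18.5, 43.6% to 48.8% at P1 and 60.8% to 62.7% at P7, and Itga7 6.03% to 7.37%, 27.5% to 37.8% and 10.9% to 16.2%. These shares do not depend on library scaling.

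**Figure D2:**
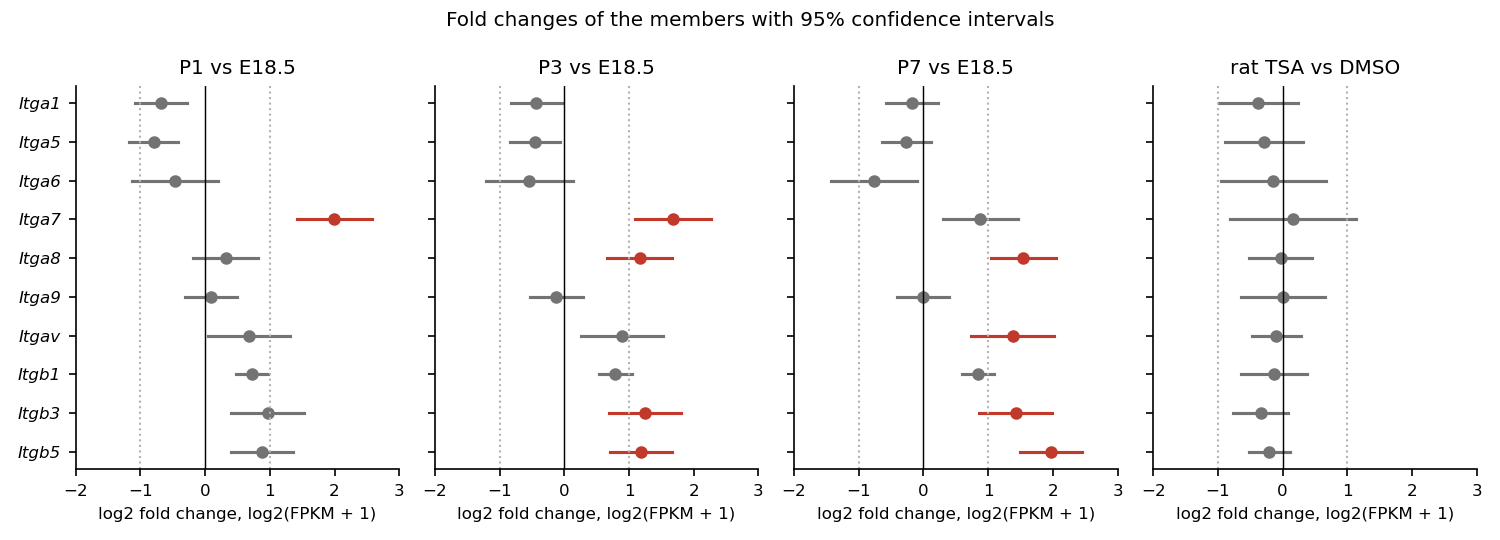
Log2 fold change of each integrin subunit against E18.5 at P1, P3 and P7 in mouse, on the log2(FPKM + 1) scale. A last panel gives TSA against DMSO in rat. Bars are limma's 95% intervals, and the fold threshold of 1 is marked. Itga7 was highest at P1 (2.0) and Itgb5 at P7 (1.97), and Itga9 stayed near 0 throughout.

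Scaling moved all genes together. The median over all genes was 0.14 at P7 with FPKM, 0.40 with TPM, which sums to a fixed total in every library, and -0.01 with median-of-ratios size factors. The share of called genes that rose was 2155 of 3870 with FPKM, 3361 of 4937 with TPM and 1727 of 3799 with size factors. The corresponding counts were 1411 of 2258, 2568 of 3320 and 1012 of 2213 at P1, and 1814 of 3055, 3068 of 4124 and 1367 of 2993 at P3. Itga8, Itgav, Itgb3 and Itgb5 were called higher at P7 under all 3 scalings. With TPM, Itga7 and Itgb1 were called higher at P7 too.

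The splice forms of Itgb1 moved in opposite directions between E18.5 and P7. The transcript with the D exon (ENSMUST00000149116.1) was assigned 27.8 and 39.1 FPKM for E18.5, then 37.2 and 76.1 for P1, 37.0 and 28.5 for P3 and 7.37 and 4.93 for P7. The common transcript (ENSMUST00000090006.11) was assigned 172 and 151, 283 and 248, 304 and 306, and 330 and 362. The D form was lower in both P7 libraries than in any other, and the common form was lowest at E18.5. At P7 the D transcript fell by 2.27 (SE 0.38, limma adjusted p 0.00775) and the common one rose by 1.10 (SE 0.12, limma adjusted p 0.00182) on the log2 scale, where 20.8% of 29201 transcripts tested changed. From P1 to P7 the D transcript fell by 2.95 (limma adjusted p 0.0157), where 4.39% changed, and the common one differed by 0.38 (limma adjusted p 0.146). At P1 both differed from E18.5 in the same direction, by 0.68 (D) and 0.71 (common), and neither was called.

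Coverage of the exon itself moved the same way, but it rests on the same division of reads among transcripts and is no separate support. Coverage of the D exon, as a share of the exon before it, was 13.1% and 19.1% for E18.5, then 10.2% and 21.8% for P1, 8.50% and 7.06% for P3 and 1.59% and 1.16% for P7 (means 16.1% ± 4.24, 16% ± 8.22, 7.78% ± 1.02 and 1.38% ± 0.31, SD, n = 2). P7 lay below P3, and P3 below E18.5 and P1. Within each of the 4 time points, the library with the larger cardiomyocyte marker sum had the larger D exon share (28030 and 36000 in E18.5, 13495 and 21720 in P1, 9120 and 7840 in P3, 2197 and 905 in P7). Time, splice choice and cell mixture cannot be told apart.

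**Figure D3:**
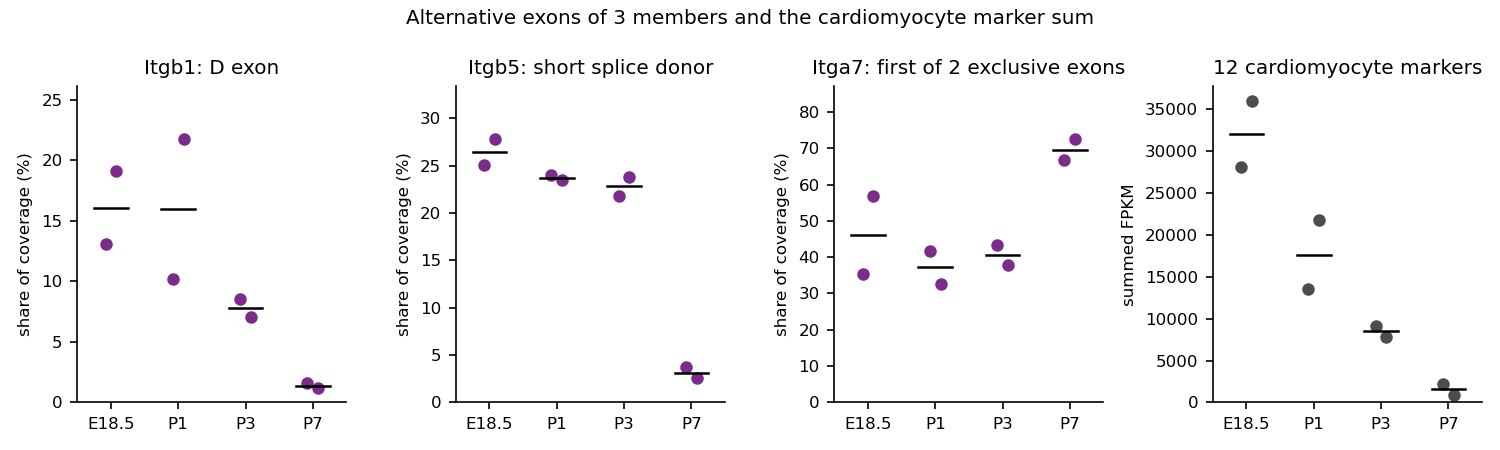
Exon coverage shares in percent (vertical axis, from 0) in the 8 mouse libraries by time point (horizontal axis), with points for the 2 libraries and horizontal lines for their mean, and a last panel with the summed FPKM of 12 cardiomyocyte markers. The Itgb1 D exon share was 7.06% to 21.8% before P7 and 1.16% and 1.59% at P7, the Itgb5 shorter end 21.8% to 27.8% before P7 and 2.60% and 3.70% at P7, and the Itga7 132-base exon, the first of its pair, 66.7% and 72.6% at P7.

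Exon coverage of Itgb5 also differed at P7. The exon end without the 29 bases made up 25% and 27.8% of coverage of both ends in the E18.5 libraries, then 24.0% and 23.4% (P1), 21.8% and 23.8% (P3) and 3.70% and 2.60% (P7). The share was nearly level over the first 3 time points and low in both P7 libraries. On the FPKM scale, coverage of the longer end was 22.4 and 28.9 at E18.5 and 113 and 146 at P7, and that of the shorter end 7.48 and 11.1 and then 4.34 and 3.90. A transcript with the shorter end (ENSMUST00000069345.5) was assigned 11.7 and 15.9 FPKM at E18.5 and 15.3 and 18.3 at P7. The exon coverage rests on the division of reads among transcripts here too, and time, splice choice and cell mixture cannot be told apart.

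The deposited transcript values assigned the rise of Itgb5 to a short transcript with an internal start (ENSMUST00000232262.1), from 6.42 and 9.55 FPKM at E18.5 to 68.7 and 84.7 at P7 (log2 fold change 3.13, SE 0.52, limma adjusted p 0.00754). The coverage of its own first exon (chr16:33891941-33892049) did not move that way. It was 2.45 and 2.57 at E18.5 and 0.30 and 0.59 at P7 on the FPKM scale, or 13.2% and 10.2%, and then 0.50% and 0.83%, of the exon after it. The division of reads among Itgb5 transcripts is thus uncertain. The gene total sums values scaled to transcript length, so its size depends on that division (2130 bases here, 3056 in ENSMUST00000069345.5). Coverage of the exon after the first, on the FPKM scale, was 18.5 and 25.1 at E18.5 and 59.0 and 71.0 at P7.

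Itga7 has a pair of exons of 132 and 120 bases (chr10:128941445-128941576 and chr10:128941822-128941941) of which GENCODE transcripts carry one or the other. The 132-base exon made up 35.3% and 56.7% of coverage of the pair in the E18.5 libraries, then 41.8% and 32.5% (P1), 43.3% and 37.8% (P3) and 66.7% and 72.6% (P7). The P7 libraries lay above all others. The deposited transcript values divided otherwise. The transcript with the 132-base exon (ENSMUST00000218290.1) was assigned 7.32 and 7.87 FPKM at E18.5 and 19.7 and 14.1 at P7. That with the 120-base exon (ENSMUST00000099112.3) was assigned 1.19 and 0.66 at E18.5 and 1.04 and 0.66 at P7. The share of each form is thus uncertain. No test was run on the exon shares, because StringTie divided the reads among transcripts before coverage was given.

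The proteins that integrins work with were taken as 4 lists. Of 24 adaptor and signalling genes tested, 7 rose and 1 fell at P7 (median 0.44), where 15.4% of all genes rose and 12.3% fell (median 0.14). The 3 with the largest rise were Actn1 (α-actinin, 2.26), Parva (parvin, 1.5) and Rsu1 (a partner of PINCH, 1.25). The 1 that fell was Itgb1bp2, which encodes melusin, a muscle protein that binds the β1 tail. It went from a mean of 80.0 to 3.89 FPKM (-4.09, SE 0.30, limma adjusted p 2.85e-05). Tln1 and Tln2, the talins that link β tails to actin, gave 0.84 and -0.03 and were not called.

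Of 22 genes for integrin ligands, 12 rose and 0 fell (median 1.42), against the same 15.4% and 12.3% of all genes. Spp1 (osteopontin, bound by αv integrins) rose by 4.38, Fbn1 (fibrillin) by 3.71 and Col1a1 (collagen I) by 3.54 on the log2 scale. Fn1, the fibronectin bound by α5β1, rose from a mean of 83.2 to 809 FPKM (3.26), while Lama2, the laminin chain of the muscle basement membrane, gave -0.02. Col1a1, Fn1 and Fbn1 are also well known fibroblast products, and 8 of 10 fibroblast markers rose beside them, with a median of 2.26. The part of fibroblast RNA in these changes was not tested.

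The dystroglycan complex is the other main laminin receptor of muscle. Of its 10 genes, counted with other laminin receptors, 0 rose and 4 fell at P7 (median -0.46), where 15.4% and 12.3% of all genes did. Among those that fell were Bcam (a laminin α5 receptor, -2.76) and Sgca (α-sarcoglycan, -2.58). Dag1, dystroglycan itself, gave 0.05. Of 16 further integrin subunits 10 were tested, and those called higher at P7 were Itgb2 (1.37) and Itgam (1.12), known from leukocytes, Itga11 (1.24), a collagen receptor of fibroblasts, and Itga4 (1.01). All 4 were under 1 FPKM in both E18.5 libraries and passed the filter only through later ones, with means under 4 FPKM at P7, so their number is no result.

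The genes with the course most like that of a member were ranked by Pearson's r of log2(FPKM + 1) over the 8 mouse libraries. For Itgb5 these were Spry1, Map2k1 and Pcsk6 (r = 0.996, 0.988 and 0.987), and 738 of 13978 genes had r above 0.9. For Itga6 they were Wasl, Zfp143 and Larp4 (0.979, 0.978 and 0.977), with 114 genes above 0.9. The 8 points share their time course and their cell mixture, so these values are a description.

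The question of whether the start sites of the subunits were open was put to the ATAC-seq peak lists, called by the authors in each library. A promoter peak was one whose midpoint lay within 2.5 kb of any annotated transcript start. Of the 10 genes, 8 and 7 had one in the E18.5 libraries, then 9 and 3 (P1), 10 and 10 (P3) and 10 and 10 (P7). In both libraries of a time point the counts were 7 (E18.5), 3 (P1), 10 (P3) and 10 (P7), where 37.1%, 27.0%, 62.7% and 57.3% of 21938 protein-coding genes had one. The lists differ in length, with 13149 and 14910 peaks in the E18.5 libraries, then 29281 and 19753 (P1), 95257 and 52040 (P3) and 49113 and 35898 (P7). With each list cut to its 13149 best peaks by score, the counts at P3 and P7 were 4 and 3, so the count moved with list length. The peak names of E18.5 replicate 1 and P7 replicate 1 carry the same library code although the lists differ. The labels were followed, and without E18.5 replicate 1 the count at E18.5 was 7, and without P7 replicate 1 that at P7 was 10. Without P1 replicate 2, the count at P1 was 9.

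**Figure D4:**
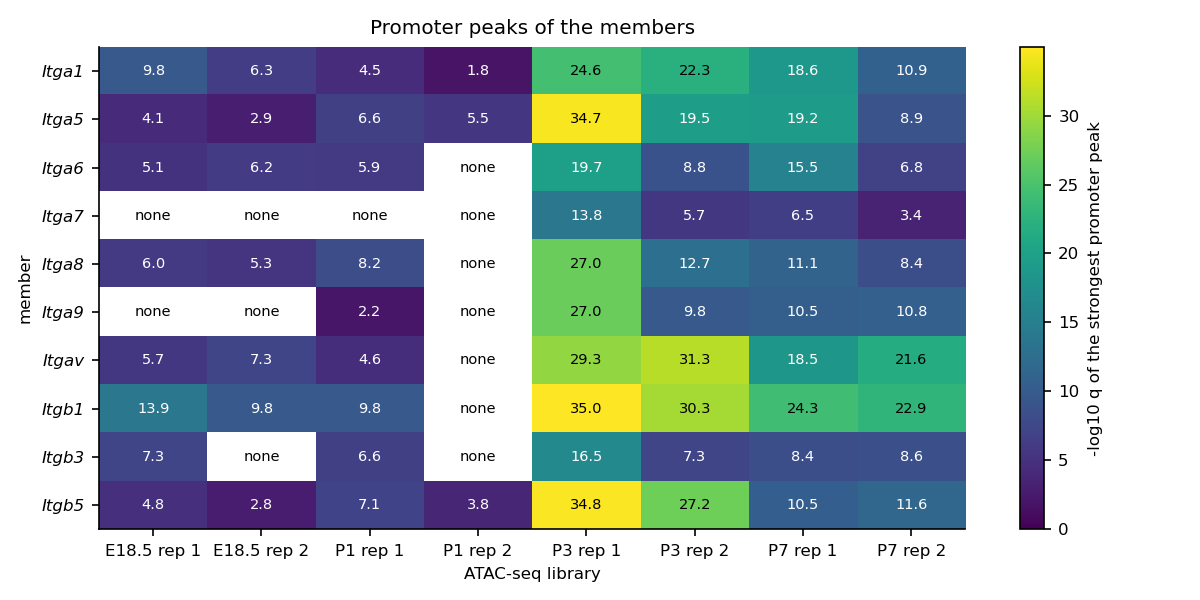
Strength of the best promoter peak of each integrin subunit (rows) in each of the 8 mouse ATAC-seq libraries (columns), with the −log10 q of the peak as colour and number and "none" where no peak was listed. Itgb1 and Itgav had peaks in all libraries but P1 replicate 2, and Itga7 had peaks at P3 and P7 alone.

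Itgb1 had its best peak over its main start, with −log10 q of 13.9 and 9.79 at E18.5, then 9.78 and no peak for P1, 35.0 and 30.3 for P3 and 24.3 and 22.9 for P7. In the window printed above, a GC box begins 151 bases and a TEAD motif 7 bases before the start. Among all RefSeq promoters 35.7% held a GC box, 14.7% the TEAD motif, 5.2% the AP-1 motif and 0.557% the MEF2 motif, which was searched as well. Of the 7 subunits with a promoter entry there, 4 held a GC box (Itga5, Itgav, Itgb1 and Itgb5), 1 the TEAD motif (Itgb1), 1 the AP-1 motif (Itga9, at another start than the main one in GENCODE) and 0 the MEF2 motif. Entries for Itga6, Itga7 and Itgb3 were not used here.

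Itga7 and Itga9 had a promoter peak in both libraries at P3 and at P7 and in neither at E18.5, which was seen for 14.9% of coding genes at P3 and 10.2% at P7. With lists of equal length neither gene gained a peak, at 0 of 10 subunits for both time points, so the gain depends on the longer lists. For Itga9 the peak lay on the main start, with −log10 q of 27.0 and 9.81 at P3 and 10.5 and 10.8 at P7, while its expression differed from E18.5 by -0.12 at P3 and -0.01 at P7. Its 201 bases hold 3 GC boxes, and 14.2% of all P3 peak windows of that length hold at least 1.

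For Itga7 the peaks were not at its main start. In P3 replicate 1, P3 replicate 2 and P7 replicate 1 the midpoint of the best peak lay 16644, 16617 and 16660 bases inside the gene, upstream of an internal start, with −log10 q of 13.8, 5.73 and 6.49, and in P7 replicate 2 it lay 2212 bases after the main start (3.37). In the printed window the AP-1 motif (chr10:128950434-128950440) begins just inside the intron that follows the exon at chr10:128950304-128950432. The match thus overlaps the splice site at the end of that exon. Of all P3 peak windows, 21.2% held this motif. Itga7 RNA was highest at P1, where neither library had a peak near any of its starts. In those libraries 46.6% and 29.1% of coding genes had a promoter peak, so a missing peak was common there.

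Best peaks of 2 other subunits were also inside the gene. Itga5 had its strongest peak 7899 to 8066 bases after the main start in 7 of 8 libraries, near an alternative start (−log10 q 34.7 and 19.5 at P3). That of Itgb5 lay at the internal start of its short transcript in 6 of 8 libraries, with −log10 q of 34.8 and 27.2 at P3 and 10.5 and 11.6 at P7. RNA coverage of the first exon there was lower at P7 than at E18.5, as given above.

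In rat cells the comparison asked whether an HDAC inhibitor changes the same subunits. Of the 10, 0 were called by limma and 0 had an unadjusted p under 0.05, where 2.13% of 13625 genes were called and 19.8% had such a p. Adjusted p-values ran from 0.361 to 0.986 and log2 differences from -0.38 (Itga1) to 0.16 (Itga7). The other tool, voom on estimated reads, also called 0. The interval of the difference was within a doubling either way for every subunit except Itga7, whose upper bound was 1.14. The smallest p that an exact permutation test of 3 against 3 libraries can give is 0.1, so the fit across all genes was used.

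**Figure D5:**
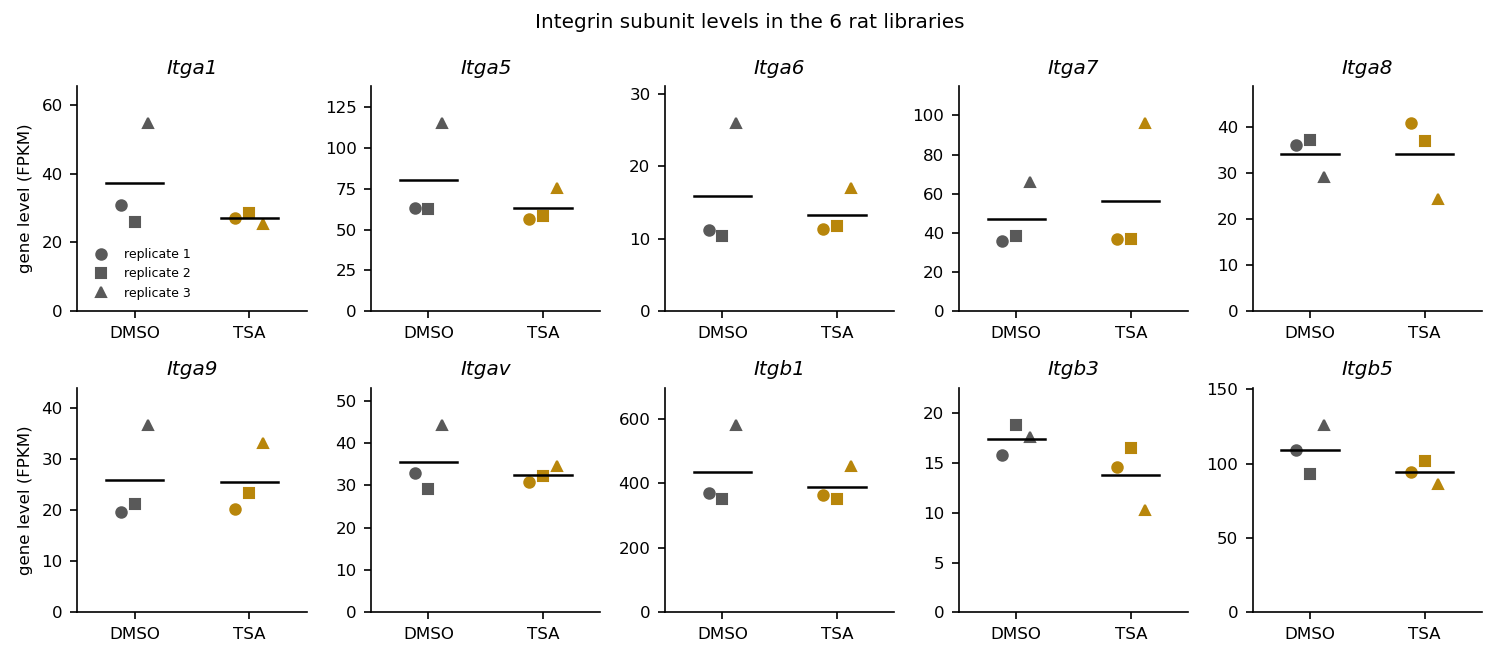
FPKM of each integrin subunit in the rat libraries (vertical axis, linear, from 0) with DMSO or TSA (horizontal axis). Points are the 3 libraries of each group, with a marker shape for each replicate number, and horizontal lines their mean. The groups overlap for all 10 genes, and the libraries numbered 3 are the highest for Itgb1 (581 and 454).

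Itgb1 read 370, 351 and 581 FPKM with DMSO and 363, 351 and 454 with TSA. Itgb5 read 109, 93.1 and 126, against 94.5, 102 and 86.3, and Itgb3 15.8, 18.8 and 17.6, against 14.6, 16.5 and 10.2. The groups overlapped for each. The differences were -0.13, -0.21 and -0.34, with 95% intervals of -0.64 to 0.38, -0.52 to 0.11 and -0.76 to 0.08. With libraries paired by replicate number, a pairing that the labels do not state, Itgb3 was lower with TSA in 3 of 3 pairs, Itgb1 and Itgb5 in 2. With the pairs as a block the difference of Itgb3 was not called either (limma adjusted p 0.242).

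The α subunit with the widest spread was Itga5 with DMSO (SD 30.2 FPKM, n = 3) and Itga7 with TSA (SD 34.2, n = 3), the latter through 1 library, TSA replicate 3. Itga7 read 35.8, 38.5 and 66.2 FPKM with DMSO and 36.6, 36.5 and 95.9 with TSA, with the libraries numbered 3 highest in each group. Cardiomyocyte markers summed to 16175 and 23205 in these libraries and to 11303 to 13082 in the other 4, but the markers disagreed. Actc1 weighed most, at 7219 and 11679 against 3327 to 4254. In DMSO replicate 3, Tnnt2, Tnni3, Myh6, Ryr2 and Pln were lower than in any other library. The remaining markers were higher there than in the other DMSO libraries. The part of cardiomyocyte RNA in the Itga7 values was not tested. Itga5 read 63.1, 62.7 and 115 with DMSO and 56.4, 58.1 and 75.4 with TSA, lower in 3 of 3 pairs (limma adjusted p 0.232 with the replicate block). Itga1 read 30.9, 26.0 and 54.7, against 27.0, 28.7 and 25.4.

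Itgav read 33.0, 29.1 and 44.3 FPKM with DMSO and 30.9, 32.1 and 34.7 with TSA. Itga8, the α subunit of mesenchymal cells, read 36.1, 37.2 and 29.1, against 40.7, 37.0 and 24.3, and it was the one α subunit that was lowest in the libraries numbered 3 of both groups. Itga9 and Itga6 lay at 19.6 to 36.7 and 10.4 to 25.9 with DMSO and at 20.3 to 33.2 and 11.3 to 17.0 with TSA. All 4 overlapped between the groups.

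The order of the means in rat was Itgb1, Itgb5, Itga5 and Itga7 in both groups, with Itga6 lowest. Itga8 stood at a mean of 34.1 ± 4.41 FPKM with DMSO (SD, n = 3) in the rat cells. Of the adaptor, ligand, dystroglycan and further integrin lists, 0 genes were called with TSA in limma. Those with an unadjusted p under 0.05 were 4 of 24, 2 of 21, 2 of 10 and 4 of 9, where 19.8% of all genes had one. Fibroblast markers summed to 2594 to 3401 FPKM with DMSO and 1612 to 2825 with TSA. With both libraries numbered 3 left out, 0 of the 10 subunits were called.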

How the data were processed

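The authors aligned RNA-seq reads with HISAT2 2.1.0 and ran StringTie (1.3.5 in the submitters' processing notes) on mm10 with GENCODE vM21 and on rn6 with Ensembl 103. The deposited files give, per transcript, FPKM and TPM as scaled by the authors' StringTie run, and coverage, or reads per base, left unscaled by the authors. The authors' own test used read counts, which were not used here. Peaks were called by the authors with MACS2 in each library. The deposited lists give a score, a fold enrichment (a ratio), and −log10 p and −log10 q values. The 6 HiChIP libraries were not used here.

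The members and the gene lists were chosen with earlier results of these data known. Gene FPKM was the sum over transcripts. Genes of FPKM at least 1 in at least 2 mouse or 3 rat libraries were tested on log2(FPKM + 1) with limma 3.58.1 in R 4.3.3 (eBayes with trend, two-sided, Benjamini-Hochberg), all mouse libraries in 1 fit. Named genes were the 10 members, the 3 called genes with the largest change in each direction in each list, and a few partners fixed with the lists (Tln1, Tln2, Itgb1bp2, Fn1, Lama2 and Dag1). Itga4, the single platelet markers and the single rat cardiomyocyte markers were named after their values were seen. A further gene that the rule would name is counted in its list but not reported here. Of the mouse members, 7 matched a RefSeq promoter entry. Exon coordinates came from GENCODE vM21.

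On simulated data for P7 against E18.5 over 13979 genes, 41 of 50 genes with a log2 change of 1.5 and 49 of 50 with 2 were recovered, and for TSA against DMSO over 13625 genes 40 and 44 of 50. The changed genes were drawn from those with a mean log2(FPKM + 1) above 2, with normal noise and all other genes unchanged. The recovery therefore does not apply to mouse Itga8, whose mean lay lower. In rat, deviations of same-numbered libraries correlated at 0.22, 0.19 and 0.35. Those of libraries 1 and 2 of unlike number correlated at 0.09 and 0.17, and those of libraries 3 with the others at -0.27 to -0.20. The numbers were used as pairs on this ground alone. The labels state no pairing, and libraries 1 and 2 were hardly told apart. The replicate block changed the call of 0 of the 10 members. Alternatives were another pseudocount, other filters, TPM, size factors, voom on estimated reads, the replicate block, only the compared time points, and leaving out each library. For peaks they were lists of equal length, the upper part of each list by score, and a 1.0 kb window.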

Additional observations from a re-analysis of the deposited data

How the results depend on the processing

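At P1 against E18.5, where 1 of the 10 members was called, 2 were called with a pseudocount of 0.1, 3 with TPM and 3 with voom, and 1 to 3 when single libraries were left out. Those left-out fits gave 3 to 5 at P3 (4 with all libraries), 4 to 5 at P7 (4) and 0 to 3 at P7 against P1 (3), where no expression filter gave 1. With TSA the count was 0 under every setting run. Voom and the fit of the compared time points alone each ended 1 call at P7 against P1 (Itgb5 and Itga7). In mouse, deviations of same-numbered libraries correlated at -0.10 to 0.17, so the libraries share only a number, and the replicate block left the counts at 1, 4, 4 and 3.

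Peak counts moved most. The upper part of each list gave 2 at E18.5 (7) and 1 at P1 (3), the 1.0 kb window 1 at P1, and leaving out single libraries 3 to 9 at P1. Lists of equal length gave 4 at P3 and 3 at P7 (10 each). Gained peaks (2 at P3 and at P7) came to 0 and 0 with equal length, 4 and 4 with the upper part, 2 to 3 with single libraries left out, and 1 at P7 with the 1.0 kb window.

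None of the fold changes that turned direction had been called. With TPM, Itga9 was 0.10 at P3 and 0.24 at P7, Itga1 0.0568 at P7, and Itga9 -0.0578 with TSA. With size factors Itga9 was -0.0836 at P1 and -0.0254 with TSA, also -0.0254 with the replicate block. With both rat libraries numbered 3 left out, a setting added after seeing the data, Itga6 was 0.0783, Itga7 -0.0217, Itga8 0.081 and Itgav 0.0227. Leaving out single libraries gave -0.98 to 0.0456 for Itga6 and -0.0584 to 0.24 for Itga9 at P1, and for Itga9 -0.16 to 0.15 at P7 and -0.25 to 0.0625 at P7 against P1. With TSA the ranges were -0.37 to 0.25 (Itga6), -0.29 to 0.43 (Itga7), -0.17 to 0.19 (Itga8), -0.18 to 0.29 (Itga9), -0.23 to 0.0675 (Itgav) and -0.26 to 0.10 (Itgb1). The causes were not tested. Depth was similar between libraries, and counting error was not separated from the spread of 2 or 3 libraries.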
